A study of Mus musculus with 43 samples.

Results

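Primary mouse colon fibroblasts treated with 4 µM regorafenib together with 1 µM autogramin-2 (R4A1) were compared with fibroblasts of the same lines treated with 1 µM autogramin-2 alone (A1). The comparison asks which transcripts respond to regorafenib when autogramin-2 is given in both groups. It held 8 of the 43 libraries of the series, chosen by the treatment and line in their labels: 1 library of each treatment from each of 4 lines, named M3, M3(2), M1(2) and M11. The other libraries are colon organoids and fibroblasts given vehicle (Ve) or regorafenib alone, and only the Ve and 4 µM regorafenib (R4) fibroblasts are used below.

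All 4 lines were wild type, were grown from the colon of C57BL/6 mice, each line from 1 mouse, and were treated for 7 days from replating. Both groups contained autogramin-2, so the only agent that differed between them was regorafenib. The study describes lines M3 and M3(2) as taken from male mice of 2 months, and for M1(2) and M11 the age of the mice is not given in the sources used here. The cultures were grown out of digested colon without a sort, so they can hold other cells of the colon wall. Transcript levels are given as CP20M, read counts scaled to 20000000 per library and not divided by transcript length, so levels are compared between libraries and not between genes. The 8 libraries held 7949961 to 11962927 reads, and 1 read was worth 1.67 to 2.52 CP20M.

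Regorafenib inhibits receptor tyrosine kinases of the VEGF, PDGF and FGF receptor families, KIT, RET and further kinases. In fibroblasts, PDGF and FGF receptors signal through ERK to a layer of immediate early transcription factors (the EGR, FOS and JUN families), which drive growth, matrix proteases and the cell cycle. TGF-beta signalling acts beside this pathway and favours contractile proteins and matrix. Autogramin-2 binds GRAMD1A, a protein that moves cholesterol from the plasma membrane to the endoplasmic reticulum and takes part in forming autophagosomes.

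The 8 libraries were first compared as a whole. Of 52636 genes in the table, 10509 reached 200 CP20M in at least 2 of the 8 libraries and were tested. Differences between lines made up 99.6% of the first principal component (60.7% of the variance), and the difference between A1 and R4A1 made up 86.6% of the second (16.4%). The treatment was therefore tested within lines, with limma and the line as a block.

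With regorafenib, 509 genes changed by at least 1.5-fold in either direction with a false discovery rate (FDR) under 0.05, which is 4.84% of the genes tested. Of these, 233 (2.22% of the genes tested) rose and 276 (2.63%) fell. The direction was the same in all 4 lines for 501 of the 509 genes, and for 35.1% of all genes tested. The 509 genes were chosen by a test within these lines, which itself favours such agreement. The changes were mostly moderate: 67 genes rose and 89 fell by at least 1 on the log2 scale, and 20 genes changed by at least 2. In 158 of the 509 genes (79 higher and 79 lower) the 4 libraries of R4A1 lay wholly outside the range of the 4 A1 libraries, which was so for 5.68% of all genes tested. The median log2 fold change over all genes tested was -0.015.

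**Figure D1:**
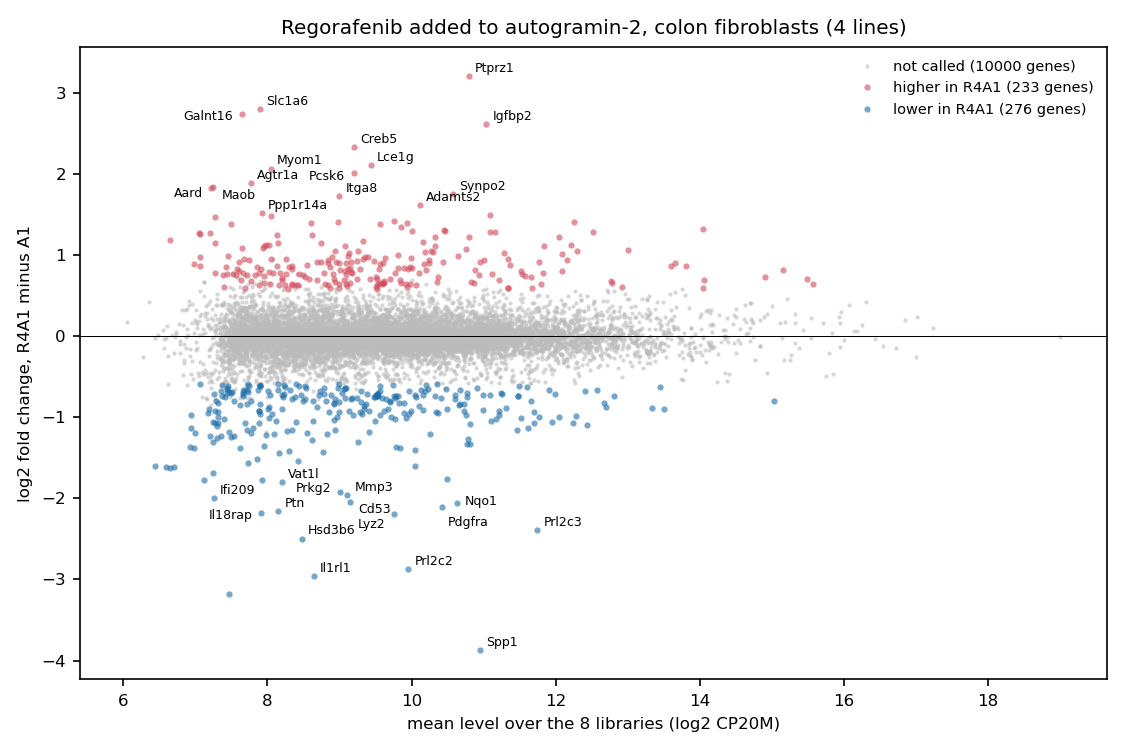
Log2 fold change between R4A1 and A1 (vertical axis) against the mean level over the 8 libraries (log2 CP20M, horizontal axis) for each of the 10509 genes tested. Red points are the 233 genes that rose and blue points the 276 that fell; the 15 named genes furthest in each direction are labelled, from Spp1 at -3.87 to Ptprz1 at 3.21.

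The gene with the deepest fall was Spp1, which encodes osteopontin, a secreted matricellular protein (ENSMUSG00000029304, GRCm38 chr5:104435118-104441050). Its level in A1 was 5899 CP20M in M3, 3103 in M3(2), 2033 in M1(2) and 3812 in M11, and in R4A1 it was 213, 237, 132 and 325 in the same order. Every R4A1 library lay below every A1 library. The fall was 14.7-fold, or -3.87 ± 0.17 on the log2 scale (SE, n = 4 lines, adjusted p = 4.63e-06). Without autogramin-2 the level went from 6821, 2845, 2036 and 5836 CP20M in Ve to 390, 392, 246 and 527 in R4, a log2 fold change of -3.31.

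Il1rl1, the receptor for interleukin-33 and a gene of the ERK target list, was next. It was at 675, 389, 1318 and 521 CP20M in A1 (lines in the order given above, here and in all lists of 4 values that follow) and at 102, 75, 103 and 20 in R4A1, a fall of 7.75-fold (log2 -2.95 ± 0.24, adjusted p = 9.89e-05), with no overlap. Il18rap, a subunit of the interleukin-18 receptor, fell by 2.18 on the log2 scale. The prolactin-family genes Prl2c2 (proliferin, log2 -2.88) and Prl2c3 (log2 -2.39) also fell, and since these paralogs are nearly identical their reads may not be separable. Other genes of the lowest 15 were Hsd3b6, a steroid dehydrogenase (log2 -2.50), Ptn, the growth factor pleiotrophin (log2 -2.16), the interferon-inducible gene Ifi209 (log2 -1.99), the cGMP-dependent kinase gene Prkg2 (log2 -1.92) and Vat1l (log2 -1.80). In each of these genes the level fell in 4 of 4 lines, which was a condition for being among the lowest 15.

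The gene with the steepest rise was Ptprz1, a receptor-type protein tyrosine phosphatase (ENSMUSG00000068748, GRCm38 chr6:22875502-23052916). It was at 322, 549, 248 and 209 CP20M in A1 and at 4607, 3667, 2722 and 1850 in R4A1. The groups did not overlap, and the rise was 9.25-fold (log2 3.21 ± 0.14, adjusted p = 4.97e-06). Igfbp2, a secreted binding protein of insulin-like growth factors, rose from 413, 742, 1040 and 287 CP20M to 3121, 4905, 3521 and 2754, or 6.13-fold (log2 2.62 ± 0.18, adjusted p = 5.44e-05), again with no overlap. Creb5, a transcription factor of the CREB/ATF family, rose from between 157 and 199 CP20M to between 792 and 1312 (log2 2.33 ± 0.13).

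Several of the other genes with large rises were low in A1. Slc1a6, a glutamate transporter, was at 77, 25, 47 and 26 CP20M in A1 and at 729, 244, 386 and 376 in R4A1 (log2 2.80 on the log2(CP20M + 20) scale, which understates folds of low genes). Galnt16, a glycosyltransferase, went from 20 to 71 CP20M over the A1 libraries to 242 to 571 in R4A1 (log2 2.74). Agtr1a, an angiotensin II receptor (log2 1.89), Maob, a monoamine oxidase (log2 1.84), and Aard (log2 1.82) likewise lay between 15 and 118 CP20M in the A1 libraries and between 146 and 415 in the R4A1 libraries. Lce1g (log2 2.11), the sarcomere gene Myom1 (log2 2.07), the proprotein convertase gene Pcsk6 (log2 2.01), the procollagen N-proteinase gene Adamts2 (log2 1.62) and Ppp1r14a, an inhibitor of myosin phosphatase (log2 1.51), complete the highest 15 together with Synpo2 and Itga8, which are described with the contractile genes. None of these genes overlapped between the groups. Slc1a6, Galnt16, Agtr1a, Maob, Aard, Myom1 and Ppp1r14a were under 200 CP20M in every A1 library and passed the filter through R4A1 alone. The same held for Creb5 and, among genes described below, for Fgf13 and Smoc2. In the same way Il1rl1, Etv1 and Slfn2 were under 200 CP20M in every R4A1 library and passed through A1 alone. That was so too for Il18rap, Hsd3b6, Ifi209, Vat1l, Mmp13, Egr2, Egr3, Kif23 and Tk1. Lack of overlap in such genes follows in part from the filter.

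**Figure D2:**
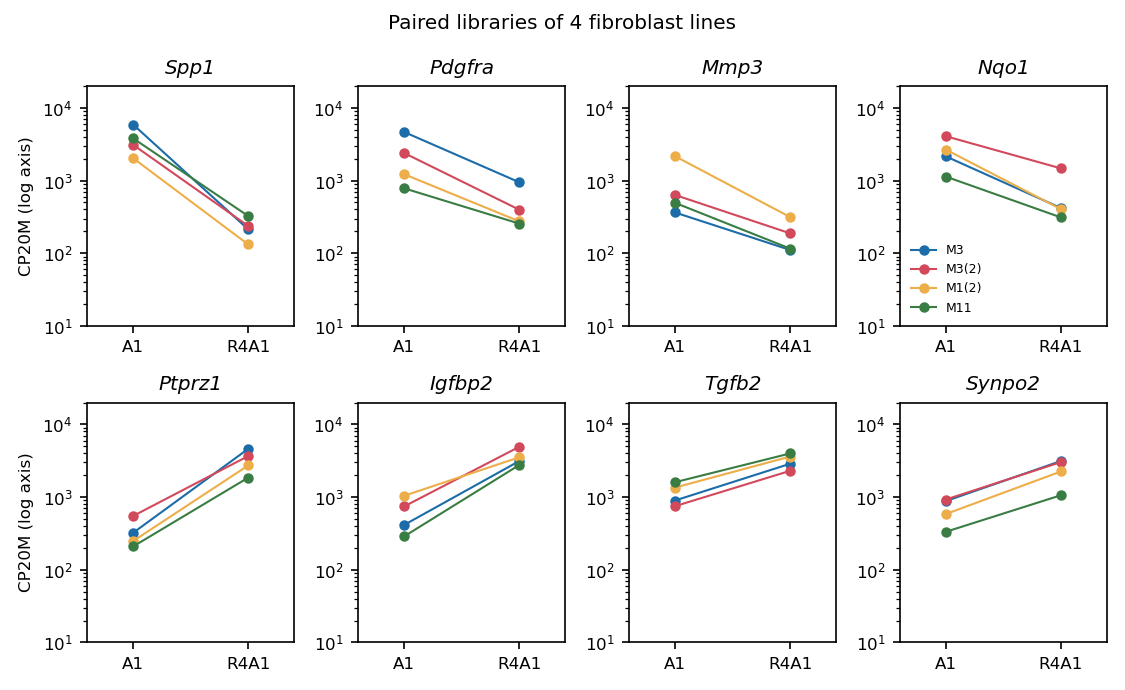
CP20M (logarithmic axis) in the A1 and R4A1 libraries of each line for 8 genes; each point is 1 library and each line joins the pair of libraries of 1 fibroblast line. The upper row falls in 4 of 4 lines (Spp1 from 2033 to 5899 CP20M down to 132 to 325) and the lower row rises in 4 of 4 lines (Ptprz1 from 209 to 549 CP20M up to 1850 to 4607).

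Among the kinases that regorafenib targets, the transcript of 1 receptor fell and that of another rose. Of 18 genes listed, 14 were tested, and their median log2 fold change was -0.03. Pdgfra, the PDGF receptor alpha and a general marker of colon fibroblasts (ENSMUSG00000029231, GRCm38 chr5:75152292-75198215), was at 4662, 2396, 1224 and 783 CP20M in A1 and at 949, 398, 275 and 256 in R4A1. The lines differed so much in level that the groups overlapped by the M3 library, yet each line fell, by 4.30-fold overall (log2 -2.11 ± 0.14, adjusted p = 3.64e-05). Kdr, the main VEGF receptor of endothelial cells, lay between 67 CP20M (M3) and 456 CP20M (M3(2)) in A1 and was at 196, 1976, 273 and 185 in R4A1 (log2 1.14 ± 0.23, adjusted p = 0.00924). It rose in 4 of 4 lines, with the highest level in M3(2).

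The other tested targets did not reach the call. Fgfr1 was at 6549, 7188, 8075 and 6028 CP20M in A1 and at 5437, 4917, 5447 and 5416 in R4A1, and the small difference (log2 -0.38, adjusted p = 0.0102) separated the groups without reaching the fold minimum. Csf1r, the receptor of the macrophage growth factor, was between 284 and 346 CP20M in A1 and between 190 and 281 in R4A1 (log2 -0.49, adjusted p = 0.0166). Pdgfrb had a log2 fold change of -0.21 (adjusted p = 0.11) and Flt4 of -0.28 (adjusted p = 0.207).

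Of 24 genes for ligands of these receptors, 19 were tested, 3 rose and 3 fell, with a median of 0.012. Kitl, the ligand of KIT, was at 1684, 6315, 5059 and 3055 CP20M in A1 and at 1187, 1759, 2016 and 1526 in R4A1 (log2 -1.16 ± 0.17, adjusted p = 0.00196), and fell in 4 of 4 lines although the ranges overlapped. Fgf7, a fibroblast-derived growth factor for epithelium, fell from 852, 343, 885 and 232 CP20M to 239, 179, 302 and 105 (log2 -1.28). The lymphatic growth factor gene Vegfc fell by 0.67 on the log2 scale, in 4 of 4 lines. It lost its call without M3 or M1(2), with log2 fold changes of -0.79 to -0.46 over the fits that leave out 1 line. Fgf13, an intracellular member of the FGF family, rose from 61 to 89 CP20M over the A1 libraries to 203 to 302 in R4A1 (log2 1.46 ± 0.16, adjusted p = 0.000422). The PDGF genes Pdgfd (log2 0.68) and Pdgfb (log2 0.59) rose as well, and each lost its call when either of 2 lines was left out (M1(2) or M11 for Pdgfd, M3 or M3(2) for Pdgfb).

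Among the immediate early genes, which growth factor receptors induce through ERK, 10 of 19 tested (52.6%) fell and none passed in the other direction. The other 9 were not called, 4 members had a positive sign (Ier5, named here after its values were seen, had a log2 fold change of 0.39, adjusted p = 0.00531, under the fold minimum), and the list had a median log2 fold change of -0.68. The number that fell was 10 with each of the 4 lines left out in turn. Egr3, a zinc finger transcription factor, was at 243, 213, 363 and 78 CP20M in A1 and at 52, 39, 121 and 8 in R4A1, a fall of 3.42-fold (log2 -1.77 ± 0.17, adjusted p = 0.000222). Line M11 had the lowest level in both groups, so that the groups overlapped although each line fell. Egr2 (log2 -1.24), the endothelial and fibroblast transcription factor gene Klf2 (log2 -1.15), the nuclear receptor gene Nr4a1 (log2 -0.74), Junb (log2 -0.73), Egr1 (log2 -0.71) and Atf3 (log2 -0.68) fell in the same way. Junb was among the most even: 2802, 2785, 3456 and 1228 CP20M in A1 against 1590, 1667, 1991 and 808 in R4A1 (SE 0.06, adjusted p = 0.000111).

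The wider list of ERK targets and feedback regulators followed in part. Of 26 tested members, 7 (26.9%) fell and none rose, with a median of -0.35. Besides Il1rl1 and the genes shared with the immediate early list, Egr1 and Fos, these included Etv1, an ETS-family transcription factor (253, 309, 357 and 159 CP20M in A1, 114, 128, 88 and 73 in R4A1, log2 -1.23, no overlap), the ERK phosphatase gene Dusp5 (log2 -0.81), Ier3 (log2 -0.73) and Fosl1, the AP-1 subunit FRA-1 (log2 -0.59). Fosl1 stood at the fold minimum and lost its call without M3(2), M1(2) or M11. Errfi1, a feedback inhibitor of the EGF receptor that stands in the EGF family list, fell from 1954, 1625, 2105 and 637 CP20M to 602, 581, 660 and 340 (log2 -1.41 ± 0.12, adjusted p = 0.000135).

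Matrix proteases included some of the larger falls. Of 22 tested, 5 fell and 2 rose, with a median of -0.13, and 5 fell with each line left out in turn. Mmp3, stromelysin-1 (ENSMUSG00000043613, GRCm38 chr9:7445822-7455975), was at 364, 634, 2164 and 494 CP20M in A1 and at 111, 188, 315 and 116 in R4A1 (3.88-fold lower, log2 -1.96 ± 0.17, adjusted p = 0.000135), with no overlap. Mmp13, a collagenase, fell from 123, 353, 634 and 222 CP20M to 45, 119, 150 and 52 (log2 -1.56). Plau, the urokinase-type plasminogen activator, fell from 4785, 4627, 5889 and 2177 CP20M to 2116, 1747, 2661 and 1216 (log2 -1.13 ± 0.08, adjusted p = 7.07e-05). The protease inhibitor gene Timp1 fell by 1.04 on the log2 scale, while Adamts2 rose.

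AP-1 dimers of FOS and JUN proteins bind the site TGACTCA, which is known from the promoters of matrix metalloproteinases, so the RefSeq promoters (GRCm38.p6) were searched for it. In the 250 bases before a listed start, on either strand, 4 of the 14 tested protease genes with an entry held the site. Of the 5 genes with an entry that were called in either direction, 3 held it (Mmp3, Mmp13 and Mmp10). Mmp10 was named here after its values were seen, with a log2 fold change of -1.38. The site was present in 3.98% of the 7791 tested genes with an entry, in 9.79% of the 194 that fell and in 6.41% of the 156 that rose. The 3 windows below are 80 bases on the strand of the gene and show where the site lies, with the site in capitals (TGACTCA, or TGAGTCA where it lies on the opposite strand).
Mmp3, chr9:7445739-7445818, plus strand: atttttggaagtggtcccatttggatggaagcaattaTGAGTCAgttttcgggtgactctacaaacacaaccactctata
Mmp13, chr9:7272434-7272513, plus strand: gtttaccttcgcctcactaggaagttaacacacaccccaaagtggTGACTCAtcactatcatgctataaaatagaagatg
Mmp10, chr9:7502242-7502321, plus strand: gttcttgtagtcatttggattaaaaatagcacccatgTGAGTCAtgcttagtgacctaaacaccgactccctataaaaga
The site began 46 bases before the start in Mmp3, 35 in Mmp13 and 63 in Mmp10.

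Of 22 contractile genes tested, 9 (40.9%) rose, none fell and 13 were not called; 21 had a positive sign, and the median log2 fold change was 0.42. The number was 9 with each line left out in turn. Synpo2, which encodes the actin-bundling protein myopodin (ENSMUSG00000050315, GRCm38 chr3:123076519-123236149), was at 881, 925, 584 and 333 CP20M in A1 and at 3135, 3028, 2251 and 1059 in R4A1, a rise of 3.38-fold (log2 1.76 ± 0.07, adjusted p = 3.89e-06) with no overlap. Itga8, an integrin subunit of smooth muscle and myofibroblasts, rose from 162, 260, 305 and 179 CP20M to 800, 935, 910 and 529 (log2 1.73 ± 0.12, adjusted p = 5.44e-05), also with no overlap.

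The classical smooth muscle genes rose less. Myh11, the smooth muscle myosin heavy chain, was at 827, 1101, 642 and 491 CP20M in A1 and at 1692, 2178, 2224 and 1114 in R4A1 (log2 1.22 ± 0.12, adjusted p = 0.000242), without overlap. Acta2, smooth muscle actin, rose from 47538, 41649, 31463 and 20433 CP20M to 72639, 57117, 60536 and 35575 (1.63-fold, log2 0.70 ± 0.09, adjusted p = 0.000784). Line M11 was lowest in both groups, and the ranges overlapped. The leiomodin gene Lmod1 (log2 1.22) and the adhesion receptor gene Mcam (log2 1.04) completed the 6 genes of the list named by rank. In the list of smooth muscle and pericyte markers, 6 of 7 tested rose and none fell (median 1.07); it shares Myh11, Lmod1, Mcam, Cnn1 (log2 1.12) and Actg2 (log2 0.90) with the contractile list and adds Notch3 (log2 1.07). The pericyte markers Rgs5, Kcnj8 and Abcc9 were at most 25 CP20M in all 8 libraries, while Notch3 was between 955 and 1442 CP20M in A1 and between 2101 and 2718 in R4A1. The part of such cells in the rise of the contractile genes was not tested.

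The CArG box, the site of serum response factor in many contractile promoters, was searched in the same promoter windows. Only the exact sequence CCWWWWWWGG (W is A or T) was counted, so boxes with any other base were missed. It was found in 1.51% of the tested genes with an entry, in 7.69% of those that rose and in 3.09% of those that fell. None of the 7 called contractile genes with an entry held this exact sequence in these 250 bases, and 4 of the 19 tested members did. Whether the 7 hold boxes that depart from it was not tested. Among the 8 called immediate early genes with an entry, Egr2 and Zfp36 held it.

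Genes for 2 of the TGF-beta ligands rose as well. Of 21 tested genes of the TGF-beta list, 9 (47.6%) rose, 1 fell and 11 were not called, with a median of 0.40; leaving out single lines gave 8 or 9 higher. Tgfb2 (ENSMUSG00000039239, GRCm38 chr1:186622792-186705989) was at 896, 749, 1350 and 1600 CP20M in A1 and at 2869, 2294, 3606 and 3979 in R4A1, a rise of 2.81-fold (log2 1.49 ± 0.07, adjusted p = 8.7e-06) with no overlap. Tgfb3 rose from 3676, 2031, 2139 and 1271 CP20M to 8714, 4628, 4192 and 2632 (log2 1.11 ± 0.06, adjusted p = 1.87e-05), in 4 of 4 lines with overlapping ranges. Ltbp2, a protein of the latent TGF-beta binding family, rose from 722, 1209, 567 and 763 CP20M to 2182, 2624, 1466 and 1740 (2.46-fold), without overlap. The target genes Tnfrsf11b, which encodes osteoprotegerin (log2 1.04), and Ctgf (log2 0.82) rose as well. The 1 gene of the list that fell was Tgfbr3, the co-receptor betaglycan, named here after its values were seen (log2 -0.83).

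**Figure D3:**
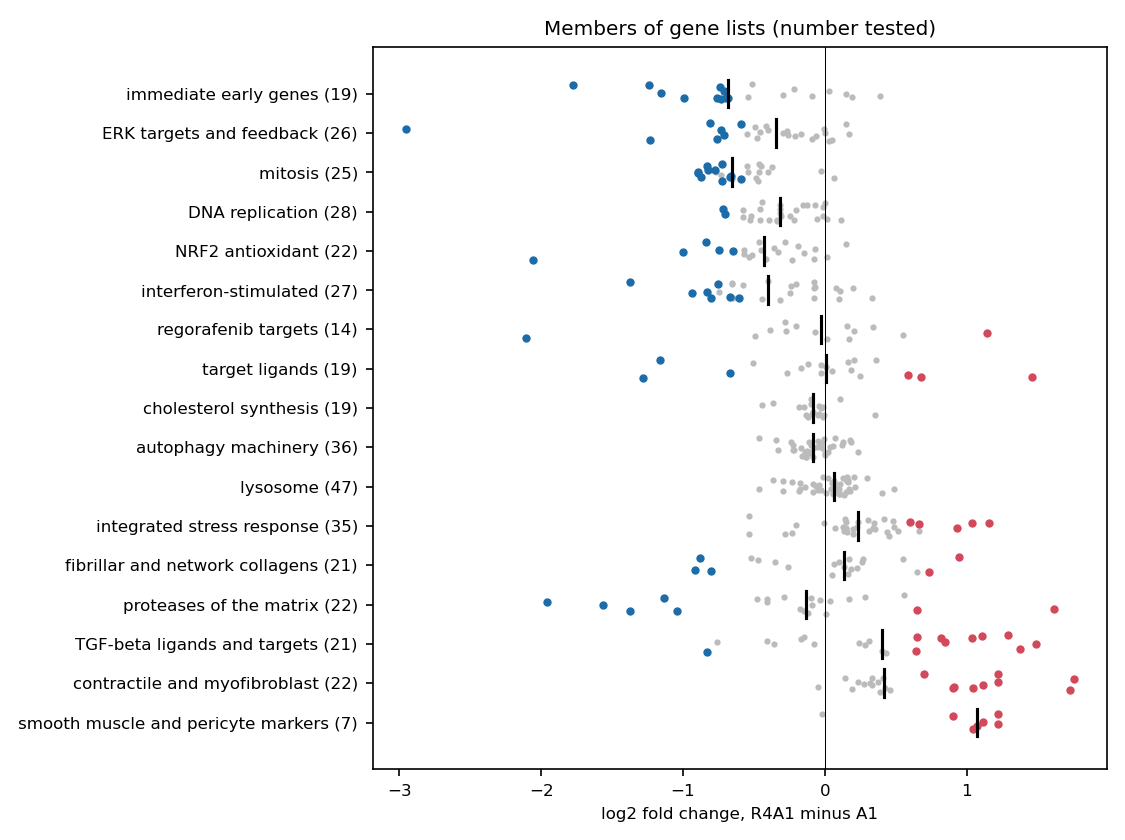
Log2 fold change between R4A1 and A1 of the tested members of 17 gene lists (number tested in brackets); each point is 1 gene, red where it rose, blue where it fell, grey where it was not called, and the black bar is the median of the list. Immediate early genes (median -0.68) and mitosis genes (median -0.65) lie to the left, contractile genes (median 0.42) and TGF-beta genes (median 0.40) to the right, and cholesterol synthesis (median -0.08) and autophagy genes (median -0.08) near 0.

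Transcripts of matrix genes changed in both directions. Of 21 tested collagen genes, 3 fell and 2 rose, with a median of 0.14. Col1a2, a chain of type I collagen, was at 51491, 46243, 32260 and 39910 CP20M in A1 and at 31096, 21426, 19248 and 25580 in R4A1 (log2 -0.81 ± 0.08, adjusted p = 0.000298), with every R4A1 library below every A1 library. Col3a1 (log2 -0.88) and Col11a1 (log2 -0.92) also fell, whereas the fibril-associated collagen genes Col12a1 (log2 0.73) and Col14a1 (log2 0.95) rose.

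Of 27 tested glycoprotein genes, 5 rose and 3 fell. Lama2 (log2 1.29), a laminin chain of muscle basement membranes, Lama5 (log2 0.93) and the elastic fibre gene Fbln5 (log2 0.76) rose, while Tnxb (log2 -0.94) and the latent TGF-beta binding protein gene Ltbp1 (log2 -0.87) fell. Among 13 tested matricellular genes, 6 rose and 1, Spp1, fell. Postn, which encodes periostin, rose from 5918, 3320, 10423 and 22431 CP20M to 20083, 9306, 24318 and 40031 (log2 1.32 ± 0.12, adjusted p = 0.000184), in 4 of 4 lines. Smoc2 (log2 1.38), Nov, also known as CCN3 (log2 1.34), and Fstl1 (log2 0.69) rose too. In the proteoglycan list of 16 tested genes, Prelp (log2 1.05) and Aspn (log2 0.82) rose, while Vcan, versican (log2 -0.93), and Has2, the hyaluronan synthase (log2 -1.36), fell. The call of Aspn was lost without M3 or M1(2).

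In the fibroblast subtype markers, 2 of 15 tested rose and 2 fell, with a median of 0.04. The study takes Cd34 and Thy1 (Cd90) as markers of crypt fibroblasts and Sfrp1 as a marker of their subtype 1, and these went in both directions. Beside Pdgfra, Cd34 fell from 2309, 4886, 6126 and 494 CP20M to 1272, 2130, 2663 and 399 (log2 -0.88), with the smallest fall in M11, the line with the lowest level. Thy1 rose from 719, 443, 178 and 655 CP20M to 1286, 974, 440 and 988 (log2 0.93). Sfrp1, a secreted Wnt antagonist, rose from 754, 906, 4326 and 5304 CP20M to 1805, 1648, 6873 and 13053 (log2 1.01 ± 0.10, adjusted p = 0.000267). Vim, the mesenchymal intermediate filament, was between 53573 and 81762 CP20M in all 8 libraries, and Pdgfra was detected in each of them.

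Of 22 tested NRF2 target genes, which serve antioxidant defence, 5 (22.7%) fell, none rose and 17 were not called, with a median of -0.43, and leaving out single lines gave 5 to 7. Nqo1, a quinone reductase and the standard NRF2 reporter, was at 2150, 4074, 2665 and 1133 CP20M in A1 and at 418, 1470, 404 and 311 in R4A1 (4.16-fold lower, log2 -2.06 ± 0.16, adjusted p = 9.18e-05). M3(2) stood highest in both groups, so that the ranges overlapped. Srxn1, sulfiredoxin, fell from 4093, 5128, 5170 and 4194 CP20M to 2206, 2137, 2372 and 2524 (SE 0.08 on the log2 scale, adjusted p = 0.000111), without overlap. Gclc, for the first step of glutathione synthesis (log2 -0.84), Prdx1 (log2 -0.74) and G6pdx (log2 -0.65) also fell.

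Genes of the integrated stress response leaned the other way: of 35 tested, 5 rose and none fell, with a median of 0.24. Atf3, which fell (log2 -0.68), was counted with the immediate early genes and not in this list. Gdf15, a stress-induced cytokine, rose from 342, 1028, 711 and 712 CP20M to 795, 2111, 1383 and 2053 (log2 1.16 ± 0.09, adjusted p = 9.47e-05). The others were the lipoprotein receptor gene Vldlr (log2 1.04), the mitochondrial folate enzyme gene Aldh1l2 (log2 0.93) and the amino acid transporter genes Slc7a5 (log2 0.66) and Slc7a1 (log2 0.60). Slc7a1 lost its call without M3(2) or M11, and Slc7a5 without M1(2) or M11. Without M11 the list held 3 called genes.

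Insulin-like growth factor binding proteins went in both directions. Of 15 tested genes of the axis, Igfbp2 rose, as described above, and 3 fell. Igfbp5 was at 226, 194, 402 and 1135 CP20M in A1 and at 88, 80, 146 and 258 in R4A1 (log2 -1.42 ± 0.16, adjusted p = 0.000568). Igfbp4 (log2 -0.80) and Igfbp6 (log2 -0.77) were the others.

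Among the cell cycle genes the number of calls depended on which lines were included. Of 25 tested mitosis genes, 11 fell and 14 were not called, 24 had a negative sign and the median was -0.65. The 6 named by rank were Kif23 (log2 -0.90), the spindle gene Hmmr (log2 -0.89), Kif20a (log2 -0.77), Prc1 (log2 -0.73), the kinase gene Aurka (log2 -0.66) and the transcription factor gene Foxm1 (log2 -0.59). Hmmr was at 503, 402, 372 and 114 CP20M in A1 and at 184, 232, 171 and 79 in R4A1, with the largest fall in M3 and the smallest in M11. The number of mitosis genes called lower was 2 without M3, 15 without M3(2), 0 without M1(2) and 21 without M11. The fold changes stayed negative in these fits, between -1.05 and -0.74 for Hmmr, -0.90 and -0.46 for Prc1 and -0.71 and -0.40 for Foxm1 on the log2 scale. Of 28 tested DNA replication genes, Tk1 (log2 -0.70) and Uhrf1 (log2 -0.72) fell, and each lost its call without M3, M3(2) or M1(2).

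Calls among interferon-stimulated genes depended on the lines too. Of 27 tested, 7 fell and none rose, with a median of -0.40, and the number called lower was 3 without M3, 4 without M3(2), 1 without M1(2) and 12 without M11. Slfn2, a schlafen-family gene of immune cells and fibroblasts, held in each of these fits: it was at 344, 299, 295 and 229 CP20M in A1 and at 88, 94, 78 and 146 in R4A1 (2.60-fold lower, log2 -1.38 ± 0.19, adjusted p = 0.00172), without overlap. Isg15 was at 231, 140, 439 and 360 CP20M in A1 and at 126, 44, 148 and 423 in R4A1, so it was lower in 3 lines and higher in M11 (log2 -0.83, adjusted p = 0.0491). Irf7 (log2 -0.80), Ifit3b (log2 -0.75), Gbp2 (log2 -0.67) and Ddx58 (log2 -0.61) each lost the call when M1(2) was left out, as did Isg15. Their fold changes stayed negative, between -1.18 and -0.63 for Isg15 and -1.01 and -0.59 for Irf7 on the log2 scale. The chemokine genes Ccl2 (log2 -0.94) and Ccl7 (log2 -0.94) fell in 4 of 4 lines.

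For the pathways closest to the known action of autogramin-2, this comparison shows only the effect of adding regorafenib, since both groups contained autogramin-2. Over all genes tested 4.84% were called, so lists of 19 to 47 genes would hold few calls at that share. None of 19 tested cholesterol synthesis genes (median -0.08), 36 autophagy genes (median -0.08) or 47 lysosome genes (median 0.064) passed the call. Gramd1a, the target of autogramin-2, was at 815, 830, 955 and 1123 CP20M in A1 and at 906, 1094, 939 and 1102 in R4A1, with a log2 difference of 0.12 and a 95% interval from -0.066 to 0.31. Gramd1b differed by -0.33 (adjusted p = 0.0387), which is below the fold minimum, and Gramd1c was between 22 and 56 CP20M and not tested. Gramd4, a more distant member of the family, fell from 1487, 1645, 1408 and 1226 CP20M to 802, 1125, 833 and 823 (log2 -0.68 ± 0.08, adjusted p = 0.000468), without overlap. None of 20 endoplasmic reticulum chaperone genes (median -0.16), 30 hypoxia and glycolysis genes (median -0.099) or 14 fatty acid synthesis genes (median -0.049) was called either, and 1 of 24 p53 target genes rose (median 0.015). The autophagy receptor gene Sqstm1 was lower in 4 of 4 lines by less than the fold minimum (log2 -0.46, adjusted p = 0.00206). Angptl4, a lipase inhibitor in the list of PPAR targets, fell from 378, 416, 459 and 189 CP20M to 104, 265, 90 and 83 (log2 -1.36 ± 0.22, adjusted p = 0.00347), least in M3(2).

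Markers of other cell types were present and some moved with the treatment. In bulk libraries fewer cells of a type and less RNA per cell cannot be told apart. Of 33 macrophage markers, 4 were tested, and 2 fell. Lyz2, lysozyme, was at 1367, 382, 1289 and 2863 CP20M in A1 and at 276, 186, 236 and 293 in R4A1 (4.56-fold lower, log2 -2.19 ± 0.27, adjusted p = 0.000883), without overlap. Cd53, a leukocyte tetraspanin, was at 1102, 1111, 955 and 556 CP20M in A1 and at 215, 225 and 221 in R4A1 in M3, M3(2) and M1(2) and lower still in M11 (log2 -2.05 ± 0.10, adjusted p = 9.98e-06), without overlap.

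The other 29 macrophage markers, none of which passed the filter, summed to 1139, 551, 1310 and 3287 CP20M in A1 and to 376, 303, 274 and 488 in R4A1, which is 1.82- to 6.74-fold lower within lines. Summed over the 4 libraries, 24 of the 29 were lower in R4A1. Among these, C1qb was at 67, 13, 92 and 300 CP20M in A1 and at 5, 3, 3 and 10 in R4A1. Ptprc, the pan-leukocyte antigen CD45, was low in both groups, at 13, 10, 16 and 46 and at 10, 3, 3 and 4. Csf1r, a tested macrophage marker, was not called (log2 -0.49) and was still at 281, 191, 190 and 238 CP20M in R4A1. The fall of the summed markers stands beside those of Lyz2, Cd53, Spp1 and Slfn2, and its part in them was not tested. In A1 both Lyz2 and the sum of the 29 markers were highest in M11 and lowest in M3(2), and both fell least in M3(2) and most in M11. Spp1 was highest in M3 and lowest in M1(2), and Cd53 was highest in M3(2) and lowest in M11. Markers of lymphocytes and mast cells reached 69 CP20M at most, and 9 of the 15 were at 0 in all 8 libraries.

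Endothelial markers stood out in 1 line. The 14 markers summed to 1719, 13937, 3906 and 4354 CP20M in A1 and to 3873, 33137, 3503 and 3379 in R4A1, so they were higher in R4A1 in M3 and M3(2) and lower in M1(2) and M11. Of 12 tested, 3 rose (Kdr, Emcn with log2 0.84 and Esam with log2 0.78), and the number was 1 without M3, 1 without M3(2), 2 without M1(2) and 5 without M11. Emcn lost its call without M3 or M3(2), and Esam without M3, M3(2) or M1(2). In R4 against Ve, 12 of the 12 rose, with a median of 1.27. The endothelial signal stands beside the rise of Kdr, and its part in that rise was not tested. Without M3(2), Kdr had a log2 fold change of 0.83. Glial and neuronal markers summed to between 1600 and 22985 CP20M in A1 and between 1439 and 18885 in R4A1, were highest in M11 in both groups, and included 1 called gene, Gfap (log2 -0.74), which lost its call without M3, M1(2) or M11. Epithelial markers other than Krt19 summed to at most 234 CP20M.

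**Figure D4:**
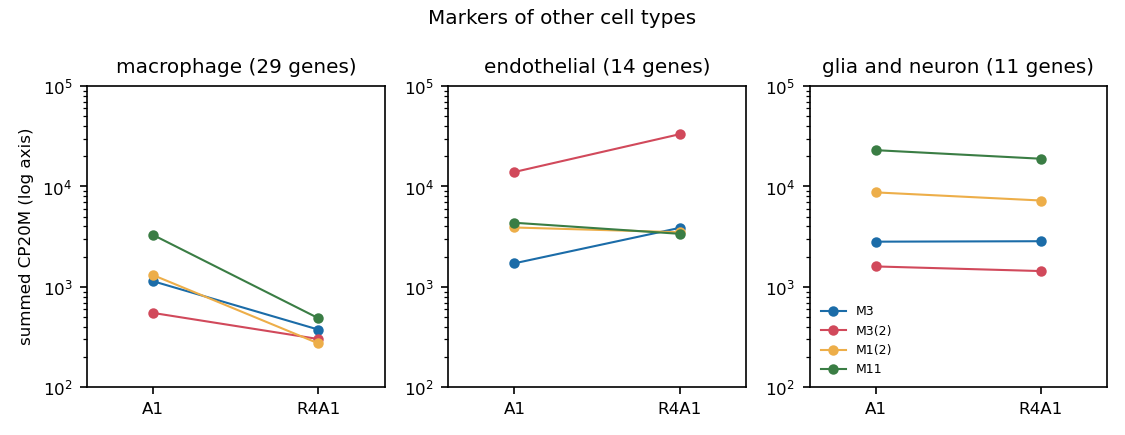
Summed CP20M (logarithmic axis) of markers of other cell types in the A1 and R4A1 libraries; each point is 1 library and each line joins the libraries of 1 fibroblast line. The 29 macrophage markers fall in 4 of 4 lines, from 551 to 3287 CP20M down to 274 to 488; the endothelial markers rise in M3 and M3(2) only, and the glial and neuronal markers order the lines alike in both groups.

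The response to regorafenib could be set beside that of the same 4 lines without autogramin-2, since R4 and Ve were separate libraries. In R4 against Ve, 699 of 10688 genes tested changed (6.54%), 445 higher and 254 lower. Of the 509 genes that changed with autogramin-2 present, 499 were also tested without it, and 498 of these had the same sign. The calls shared in the same direction were 359, which is 70.5% of those with autogramin-2 and 51.4% of those without it, and no gene was called in opposite directions. The median absolute log2 fold change of the 509 genes was 0.85. Over the 499 of them tested without autogramin-2, the median change there, taken in the same direction, was 0.89.

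The difference between the 2 responses was then tested directly, in 1 fit of the 16 libraries. None of 10979 genes passed an FDR of 0.05 in limma, 736 had an unadjusted p below 0.05, and the lowest adjusted p was 0.443. The estimates were not equally precise, so the intervals differ in what they leave possible. For Tgfb2 the difference of the log2 responses was -0.027, with a 95% interval from -0.29 to 0.24, and for Ptprz1 it was 0.18, from -0.34 to 0.70. Spp1 had a difference of -0.57, from -1.15 to 0.013.

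A few named genes had larger differences, none of which passed the adjustment (adjusted p = 0.726 for each in limma). Slfn2 fell by 1.38 on the log2 scale with autogramin-2 and by 0.50 without it, where it was at 495, 340, 287 and 351 CP20M in Ve and at 218, 324, 221 and 245 in R4 (difference -0.87, interval -1.42 to -0.32, unadjusted p = 0.00427). Nqo1 fell by 2.06 with and by 0.99 without autogramin-2 (difference -1.07, interval -1.76 to -0.38, unadjusted p = 0.00491). Lyz2 fell by 2.19 and 1.23 (difference -0.96, interval -1.72 to -0.19). Igfbp2 rose by 2.62 and 3.39 (difference -0.77, interval -1.39 to -0.15).

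**Figure D5:**
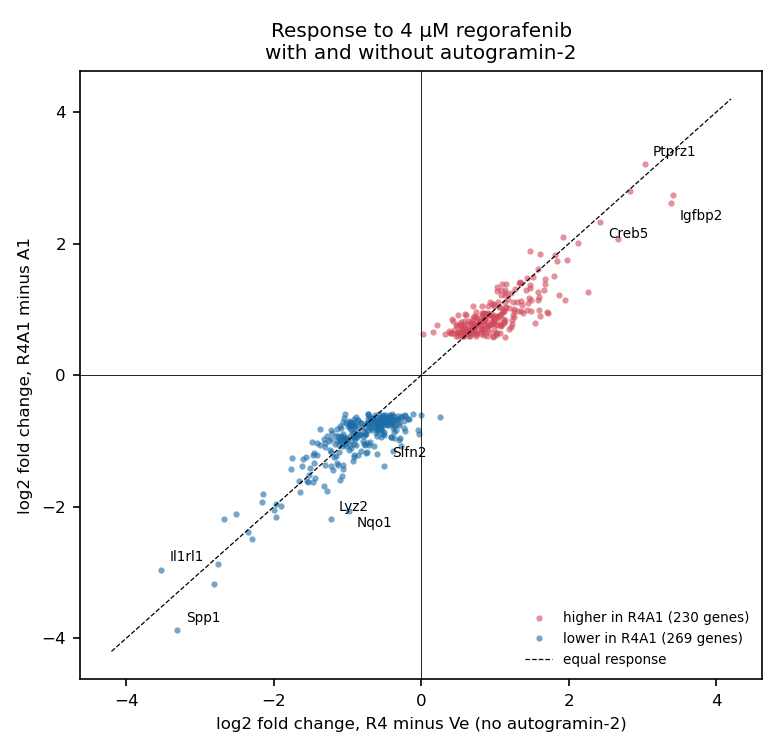
Log2 fold change in R4A1 against A1 (vertical axis) and in R4 against Ve (horizontal axis) for the 499 genes that were called in the first comparison and tested in both; each point is 1 gene, red where it rose and blue where it fell, and the dashed line marks equal responses. Of the 499 genes, 498 have the same sign in both, and Nqo1 (-2.06 and -0.99), Lyz2 (-2.19 and -1.23) and Slfn2 (-1.38 and -0.50) lie furthest below the line among the labelled genes.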

How the data were processed

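Total RNA of the fibroblast cultures was sequenced as paired-end libraries (Ovation SoLo kit per the labels). The deposited signal values, CP20M, were made by the authors by trimming (Trimmomatic 0.36), alignment to GRCm38 (STAR 2.5.3a), counting per Ensembl gene (HTSeq 0.9.1, annotation release 90) and scaling each library to 20000000, rounded up; versions are from the submitters' processing notes. Legends call CP20M per kilobase, but within a library all genes share 1 step, so it was read as a scaled count. Whether reads were counted by strand is not given in the sources used here, and 71 of the 168 named genes overlap a gene on the opposite strand in GENCODE M21, Pdgfra, Slfn2, Has2 and Timp1 among them.

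The test was that of limma 3.58.1 (R 4.3.3, trend) on log2(CP20M + 20), with the line as a block, and Benjamini-Hochberg adjustment over 10509 genes with at least 200 CP20M (10 CPM) in 2 of 8 libraries. The authors used edgeR on these values; as they are not counts, limma was used, and whole reads recovered from the steps (at least 99.6% of values whole per library) served a voom alternative. Libraries of a line deviated together (correlation of deviations from group means 0.559 to 0.907), and each line comes from 1 mouse, so the lines pair the libraries. The median between different lines was -0.239, but subtracting the group means itself pushes these values below 0. No 2 replicates agreed within sampling noise (mean chi-square per gene at least 8.86 over 12 pairs). On simulated data of this comparison (10509 genes) the fit called 42 of 50 genes changed by 0.8 on the log2 scale and 49 of 50 changed by 2, with 6 false calls.

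Named genes were the 15 highest and 15 lowest called genes with 1 sign in 4 lines (clone names left out), 12 genes of interest to the study, and up to 6 called members per list by smallest p (3 by smallest p where none was called). A last part of the rule, genes past the FDR in the test of the 2 responses, named none. The members and lists were chosen with earlier results of these data known. Each value is 1 culture per line and treatment; intervals are 95%. Promoters came from RefSeq (GRCm38.p6). The title of the R4A1 library of M3 lacks the line, which was read from the library name in its description. Some named genes are not reported here. The organoid table was not used.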

Additional observations from a re-analysis of the deposited data

Results flagged for a closer look

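Among the 129 genes examined, 22 of 258 groups of 4 libraries had 1 library further from the other lines than Dixon's 95% critical value allows, judged by its gap to the nearest other library as a share of the group's range. Chance flags about 1 in 20 groups, and the causes were not tested.

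Line M3(2) was apart in R4A1 at 3 endothelial genes. Kdr was at 1976 CP20M there against 185 to 273 in the other lines (gap 0.951 of the range), Emcn at 3941 against 473 to 576 (0.97) and Esam at 564 against 83 to 94 (0.977). Esam was also high in its A1 library, at 272 CP20M against 30 to 61 (0.872). In the same R4A1 library Nqo1 was at 1470 CP20M against 311 to 418 (0.908), Pcsk6 at 1704 against 584 to 746 (0.855) and Angptl4 at 265 against 83 to 104 (0.885). Gramd4 was at 1125 CP20M against 802 to 833 (0.904), Prdx1 at 5533 against 5305 to 5338 (0.855), and Fgfr1 was low at 4917 against 5416 to 5447 (0.942).

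Line M11 was low in R4A1 at Nr4a1, with 507 CP20M against 1024 to 1119 (gap 0.845 of the range), at Prkg2, with 75 against 213 to 239 (0.841), and at Lce1g, with 419 against 1281 to 1436 (0.848). It was also low there at Agtr1a (222 CP20M against 383 to 415, 0.834), at Vcan (941 against 1871 to 1922, 0.948) and at Cd53, below the 215 to 225 of the other lines (0.859), and high at Gbp2 (307 against 121 to 142, 0.887). In A1 it was low at Klf2 (184 CP20M against 501 to 566, 0.83) and Fbln5 (868 against 2596 to 2685, 0.951), and high at Gramd1b (1153 against 423 to 546, 0.832) and Gfap (3701 against 184 to 696, 0.854). Line M1(2) was high in A1 at Mmp3, with 2164 CP20M against 364 to 634 (0.85).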

How the results depend on the processing

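With no replicate block, that is without pairing by line, 20 genes passed (12 higher, 8 lower), all of them among the 509, and R4 against Ve gave 42 in place of 699. The lines differed more than the treatments did. With the FDR alone and no fold minimum, 1527 genes passed (742 higher, 785 lower). The count stayed between 392 and 593 with all 19 libraries, other pseudocounts, filters or scaling, or voom on recovered reads. Leaving out 1 line at a time gave 402 to 612 genes (208 to 262 higher, 194 to 350 lower), 527 to 758 in R4 against Ve, and 0 to 1 in the test of the 2 responses: without M3, Mmrn1, chosen after its values were seen, passed with an adjusted p of 0.0203. Of the 509 calls, 332 held with every single line left out. None of the 129 genes examined changed sign in any of these settings. Median-of-ratios scaling moved the median of all genes to 0.0037. With 1 culture per line and treatment, depth was not varied, and genes under 200 CP20M were not tested.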
